A study of Triticum turgidum subsp. durum with 4 samples.

Results

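This section describes the miRNAs named miR1432 or miR5048 in small RNA libraries of durum wheat (Triticum turgidum subsp. durum) seedlings. Members were chosen by their family name alone, and 23 of the 2111 different mature sequences in the table carried it, 4 for miR1432 and 19 for miR5048. The study asked how water-deficit and heat stress of the parents is reflected in the progeny of a stress-tolerant and a stress-sensitive genotype. SWH was made from L6 (Line 6, UAD1301020-8, stress-sensitive) seedlings whose parents had been under water-deficit and heat stress (WH), and SCG from L6 seedlings of control parents (CG). TWH was made from DBA Aurora (stress-tolerant) seedlings of WH parents, and TCG from DBA Aurora seedlings of CG parents. All seedlings themselves grew in sand in the same controlled glasshouse, and each library held pooled total RNA from the shoots of 8 seedlings at 12 days. With 1 library per seed group no spread between replicates could be measured, so each p-value from a pair of libraries compares those libraries and not the seed groups.

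Plant miRNAs are cut from the arms of a folded precursor RNA, pair with a target transcript over nearly their whole length and usually lead to its cleavage. The miR1432 family is known mainly from grasses. In rice, its targets include an acyl-CoA thioesterase gene that affects grain filling, and genes of EF-hand calcium-binding proteins have been predicted as targets. The miR5048 family was annotated in barley and wheat, and protein kinase genes are among its predicted targets in barley. No target was measured in these libraries.

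The miR1432 sequences are shown because they separate the homoeologous loci of the A and B genomes. Capitals mark the seed, bases 2 to 8, and all sequences are written as DNA, 5′ to 3′, from the deposited table.
ata-miR1432-5p_L+1R-1: aTCAGGAGagatgacaccgac
sbi-miR1432: cTCAGGAGagatgacaccgac
osa-miR1432-5p_L-1R+1: tCAGGAGAgatgacaccgaca
ata-miR1432-3p_L-1R+1: tGGTGTCAcctcgcctgaaca
The first 2 sequences shared the seed TCAGGAG and their capitals and all later letters are the same. The osa-miR1432-5p_L-1R+1 form begins 1 base later, so its seed was CAGGAGA. The name suffix L or R with a number gives the bases that a sequence has more or fewer than the miRBase entry at its left or right end. The ata and osa 5p forms occurred exactly only in the precursor at chr2B:205394346-205394455 (Svevo.v1, plus strand) and in an overlapping precursor, and sbi-miR1432 occurred only in the precursor at chr2A:147377968-147378089 (minus strand). The 3p form occurred in both. The nearest annotated genes were TRITD_2Bv1G078170, 4692 bp away on 2B, and TRITD_2Av1G064720, 1979 bp away on 2A, so both precursors lie between genes. The 110-nt precursor on 2B is shown with the 2 arms in capitals, since it holds the family's most abundant form together with its opposite strand.
2B precursor: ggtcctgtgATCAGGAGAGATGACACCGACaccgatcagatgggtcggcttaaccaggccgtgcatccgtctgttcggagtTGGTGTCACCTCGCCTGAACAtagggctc

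For miR5048, the 5 sequences below held the main reads of the family or the largest fold change between the genotypes.
tae-miR5048-5p: tTTGCAGGttttaggtctaagt
tae-miR5048-5p_L+2R-2: tATTTGCAggttttaggtctaa
tae-MIR5048-p3_1ss18TG: aATATATTtgcaggtttgagg
tae-MIR5048-p5_1: tTAGACCTagacatgcaagt
tae-MIR5048-p5_2ss18AT19GT: tTAGACCTagacatgcatt
Names with MIR in capitals and p5 or p3 were given by the authors to sequences placed on a precursor that carry no mature miRNA name, and ss marks substitutions. The first 3 sequences overlap on the 5′ arm of the 343-nt wheat miRBase precursor with shifted starts, at bases 13, 11 and 7, so that their seeds differ, as the capitals show. tae-MIR5048-p3_1ss18TG carries T18G against the miRBase precursor, counted from 1 at its 5′ end. The last 2 lie on the 3′ arm from base 313 and share the seed TAGACCT, and tae-MIR5048-p5_2ss18AT19GT carries A18T and G19T. Thus the p5 and p3 in these names did not follow the arm of the miRBase precursor, and arms are given below by position on that precursor. In their own deposited precursors, tae-MIR5048-p3_1ss18TG began at base 46 of 75 and tae-MIR5048-p5_1 at base 3 of 36, on the sides that their names give. However, tae-miR5048-5p began at base 52 of 75 in its own, on the side opposite to its name. Over the 19 sequences there were 10 different seeds, and 6 sequences shared TAGACCT.

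**Figure D1:**
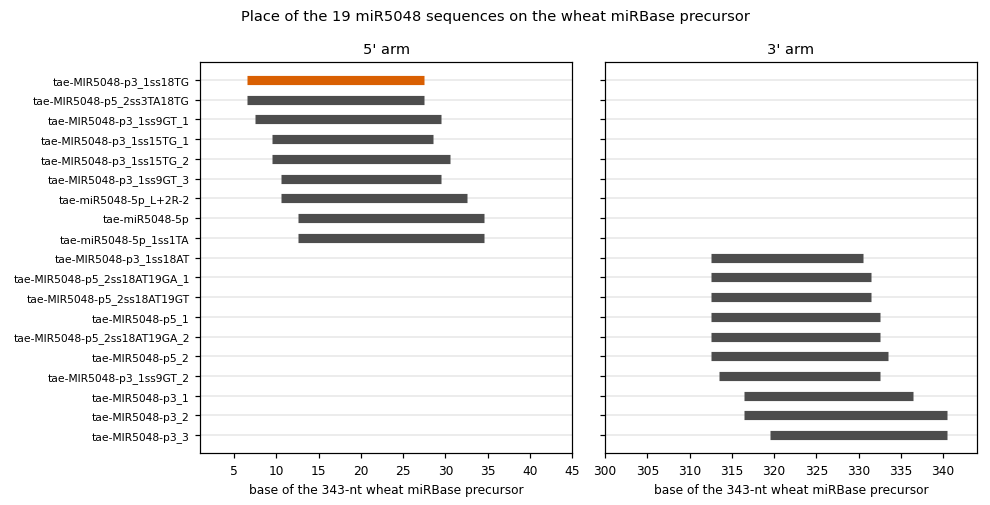
Place of the 19 miR5048 sequences (bars) on the 343-nt wheat miRBase precursor, with the base number on the horizontal axis and a gap between the 2 panels. The 9 sequences on the 5′ arm start at bases 7 to 13 and the 10 on the 3′ arm at bases 313 to 320, and the orange bar is tae-MIR5048-p3_1ss18TG.

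Sequences from both arms of the miRBase precursor lay near each other on chromosomes 7A and 7B, but in separate deposited precursor fragments. In the best ungapped pairing of tae-miR5048-5p with tae-MIR5048-p5_2, 6 of 20 positions were unpaired. For ata-miR1432-5p_L+1R-1 with ata-miR1432-3p_L-1R+1 it was 3 of 19. Whether the miR5048 arms fold into 1 hairpin was not tested. On 7A, tae-miR5048-5p (chr7A:550564738-550564759) and tae-MIR5048-p5_1 (chr7A:550565048-550565067) spanned 330 nt on the plus strand. On 7B, tae-miR5048-5p_L+2R-2 (chr7B:497153979-497154000) and tae-MIR5048-p5_2 (chr7B:497154315-497154335) spanned 357 nt, also on the plus strand, against 320 nt in the miRBase precursor. Both 5p forms occurred exactly in the 7A and in the 7B fragment, so their reads could not be assigned to 1 of these loci. In contrast, tae-MIR5048-p3_1ss18TG occurred exactly in the fragments from chromosomes 4A (chr4A:495836708-495836782, minus strand) and 4B (chr4B:126201211-126201298, minus strand) and in none of the 7A and 7B fragments. The 4A and 7A fragments are shown to compare these loci, with the mature sequence in capitals.
4A fragment: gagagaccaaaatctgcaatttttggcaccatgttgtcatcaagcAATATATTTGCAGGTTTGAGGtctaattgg
7A fragment: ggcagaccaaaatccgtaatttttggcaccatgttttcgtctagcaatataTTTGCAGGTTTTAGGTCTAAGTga
Of the 23 member loci, 2 lay inside an annotated gene, TRITD_5Bv1G184010 for tae-MIR5048-p5_2ss3TA18TG and TRITD_6Bv1G196180 for tae-MIR5048-p3_1ss9GT_1. All others lay between genes. Neither of these 2 sequences occurred exactly in its deposited precursor, so their placement inside genes is uncertain. The gene table gives gene spans only, so exons, introns and UTRs were not told apart.

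The table assigned 855716, 1293324, 1096670 and 994074 reads to miRNA sequences in SWH, SCG, TWH and TCG. Multiplying the read numbers of these libraries by 1.20, 0.833, 0.946 and 1.04 gives the authors' normalised counts. Hardly any value under 5 reads was recorded, so a 0 stands for fewer than about 5 reads, or 5.99, 4.16, 4.73 and 5.18 normalised counts. Of the 23 members, 22, 23, 21 and 18 were detected in SWH, SCG, TWH and TCG. The 23 sequences held only 16 different sets of values, 4 for miR1432 and 12 for miR5048. All 108 base names in the table that were numbered (_1, _2 and so on) had the same reads under every number. For tae-MIR5048-p3_1ss9GT_1, _2 and _3 this was so although the sequences lie on opposite arms, and which of them carried the reads cannot be told apart. With overlapping sequences of identical values counted once, miR1432 took 0.569%, 0.475%, 0.451% and 0.599% of the miRNA reads in SWH, SCG, TWH and TCG, and miR5048 took 3.82%, 4.01%, 3.55% and 3.42%.

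**Figure D2:**
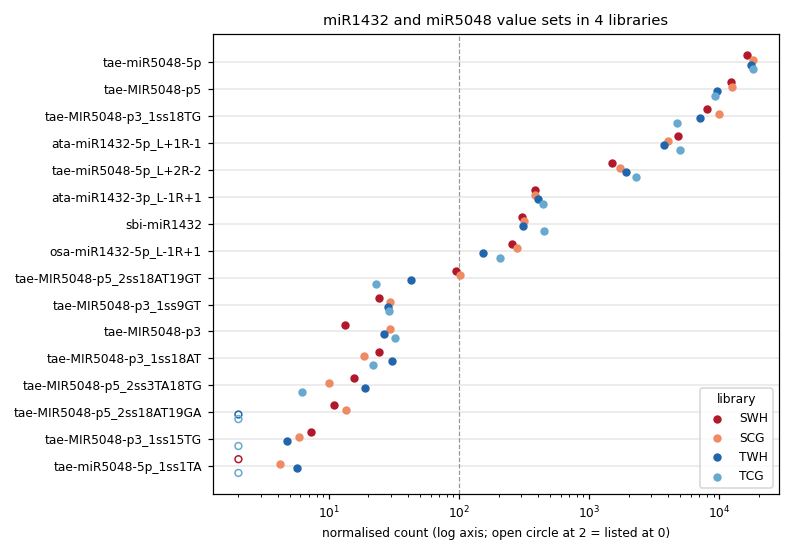
Normalised count (log axis) of the 16 value sets of both families, 1 point for each of the 4 libraries, with an open circle at 2 for a value listed at 0 and a dashed line at 100. In 9 value sets at least 1 library reached 100, and tae-MIR5048-p5_2ss18AT19GT (lowest of the 9) shows both L6 points to the right of both DBA Aurora points.

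The most abundant miR1432 sequence was ata-miR1432-5p_L+1R-1, the 5′ arm form of the 2B locus, with 4761 normalised counts in SWH, 4042 in SCG, 3727 in TWH and 4956 in TCG. It ranked 45th by mean among the 2111 sequences. SWH and TCG were the high libraries and SCG and TWH the low ones, so neither the genotypes nor the parent treatments were separated. The count fell to 0.752 of the TCG level in TWH (log2 -0.41, 95% interval -0.47 to -0.35, Fisher's exact p = 2.35e-42) and rose in SWH relative to SCG (log2 0.24, 0.18 to 0.30, Fisher's exact p = 2.38e-23). These intervals come from the read numbers and cover counting error only.

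The 2A form, sbi-miR1432, had 304 normalised counts in SWH, 312 in SCG, 309 in TWH and 448 in TCG. TCG alone stood high. It fell in TWH relative to TCG (log2 -0.54, -0.75 to -0.33, Fisher's exact p = 2.28e-07) and in SCG relative to TCG (log2 -0.52, -0.72 to -0.32, Fisher's exact p = 2.59e-08). SWH against SCG gave a log2 of -0.04 (-0.27 to 0.20) and passed neither test.

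The shifted osa-miR1432-5p_L-1R+1 had 255 normalised counts in SWH, 276 in SCG, 151 in TWH and 205 in TCG. Both L6 libraries lay above both DBA Aurora libraries. It rose in SWH relative to TWH (log2 0.75, 0.45 to 1.06, Fisher's exact p = 1.24e-07) and in SCG relative to TCG (log2 0.43, 0.17 to 0.69, Fisher's exact p = 0.00619), and fell in TWH relative to TCG (log2 -0.44, -0.75 to -0.13, Fisher's exact p = 0.00351). edgeR's exact test, described below for tae-MIR5048-p3_1ss18TG, gave p = 0.110, 0.302 and 0.444 in the same order. In that test no miR1432 sequence had an unadjusted p under 0.05 in any comparison.

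The 3′ arm form, ata-miR1432-3p_L-1R+1, had 381 normalised counts in SWH, 384 in SCG, 399 in TWH and 436 in TCG. Its 4 values lay within a ratio of 1.14 between the highest and the lowest library, and a chi-squared comparison of all 4 gave p = 0.0811. Of the 4 pairs, SCG vs TCG passed both tests (log2 -0.18, -0.38 to 0.01, Fisher's exact p = 0.0144). The 5′ arm held 93.3% of the miR1432 reads in SWH (exact binomial 95% interval 92.6 to 94.0), 92.3% in SCG (91.6 to 93.0), 91.3% in TWH (90.5 to 92.1) and 92.8% in TCG (92.1 to 93.4). Within the 5′ arm, sbi-miR1432 took 5.72% of the reads in SWH (5.06 to 6.45), 6.74% in SCG (6.10 to 7.43), 7.37% in TWH (6.62 to 8.18) and 7.99% in TCG (7.28 to 8.74). The shifted osa form took 4.80% in SWH (4.19 to 5.47) and 5.95% in SCG (5.34 to 6.61), against 3.62% in TWH (3.09 to 4.21) and 3.65% in TCG (3.17 to 4.19). The 2A form thus took the lower shares in the L6 libraries and the shifted 2B form the higher ones. However, the intervals of SCG and TWH overlapped for the 2A form, and those of SWH and TWH for the shifted form.

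For miR5048, the annotated tae-miR5048-5p was the most abundant member, with 16420 normalised counts in SWH, 18047 in SCG, 17462 in TWH and 18121 in TCG. It ranked 9th of the 2111 sequences, and its highest library was 1.10 times its lowest. It fell in SWH relative to SCG (log2 -0.14, -0.17 to -0.11, Fisher's exact p = 1.77e-05, edgeR's exact test p = 0.792). Between SCG and TCG the log2 fold change was -0.01 (-0.03 to 0.02) although both tests passed, because the tests compare shares of the total normalised count and these totals differed between the libraries.

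The form shifted by 2 bases, tae-miR5048-5p_L+2R-2, had 1503 normalised counts in SWH, 1716 in SCG, 1900 in TWH and 2297 in TCG. Both L6 libraries lay below both DBA Aurora libraries. It fell in SWH relative to TWH (log2 -0.34, -0.44 to -0.24, Fisher's exact p = 1.07e-10) and in SCG relative to TCG (log2 -0.42, -0.51 to -0.33, Fisher's exact p = 2.18e-26). For these comparisons edgeR's exact test gave p = 0.443 and p = 0.397. The unshifted form had 10.9 times its reads in SWH (10.3 to 11.6), 10.5 in SCG, 9.19 in TWH (8.78 to 9.63) and 7.89 in TCG (7.55 to 8.25).

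From the 3′ arm, tae-MIR5048-p5_1 and tae-MIR5048-p5_2, which share their values, had 12174 normalised counts in SWH, 12370 in SCG, 9522 in TWH and 9206 in TCG. Both L6 libraries again lay above both DBA Aurora libraries. They rose in SWH relative to TWH (log2 0.35, 0.31 to 0.39, Fisher's exact p = 1.95e-80) and in SCG relative to TCG (log2 0.43, 0.39 to 0.46, Fisher's exact p = 3.97e-75). edgeR's exact test, described in the next paragraph, gave p = 0.421 and p = 0.280 for these comparisons. Between SWH and SCG the log2 of the counts was -0.02 (-0.06 to 0.01) and that of the shares 0.05, so no direction is given although both tests passed.

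tae-MIR5048-p3_1ss18TG, on the 5′ arm of the miRBase precursor, occurred exactly in the 4A and 4B fragments. It had 7963 normalised counts in SWH, 9898 in SCG, 7075 in TWH and 4677 in TCG. TCG was the low library and SCG the high one. It rose 2.12-fold in SCG relative to TCG (log2 1.08, 1.03 to 1.13) and 1.51-fold in TWH relative to TCG (log2 0.60, 0.54 to 0.65, Fisher's exact p = 3.26e-105), and fell in SWH relative to SCG (log2 -0.31, -0.36 to -0.27, Fisher's exact p = 1.36e-29). In SWH relative to TWH it rose by a log2 of 0.17 (0.12 to 0.22, Fisher's exact p = 1.34e-15). Where the spread between libraries was estimated over the 1258 sequences whose normalised counts averaged at least 10, as a common dispersion of 0.0454 for edgeR's exact test, SCG against TCG gave p = 0.0109 (adjusted p = 0.0802) and the other comparisons of this sequence gave p of 0.130, 0.504 and 0.70. Since each seed group has 1 library, this dispersion does not measure a spread between replicates. It can hold differences in parent effect between the genotypes, such as the opposite directions seen for this sequence.

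**Figure D3:**
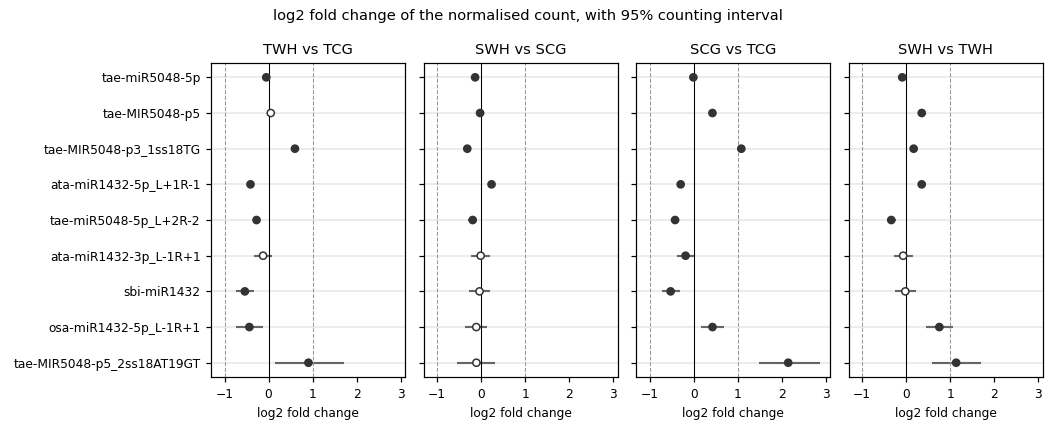
log2 fold change of the normalised count in each of 4 comparisons (panels) for the 9 value sets that reached 100 in 1 library, with 95% counting intervals as lines, filled points where both tests passed and dashed lines at -1 and 1. Past the dashed lines lie tae-MIR5048-p3_1ss18TG in SCG vs TCG (log2 1.08) and tae-MIR5048-p5_2ss18AT19GT in SCG vs TCG (2.15) and SWH vs TWH (1.13).

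Among the 4 abundant miR5048 value sets, tae-miR5048-5p took 43.1% of the reads in SWH (42.6 to 43.7) and 42.9% in SCG (42.5 to 43.4), against 48.6% in TWH (48.1 to 49.1) and 52.8% in TCG (52.3 to 53.4). tae-MIR5048-p3_1ss18TG took 20.9% in SWH (20.5 to 21.4) and 23.6% in SCG (23.2 to 23.9), against 19.7% in TWH (19.3 to 20.1) and 13.6% in TCG (13.3 to 14.0). The 3′ arm sequence tae-MIR5048-p5_1 took 32.0% in SWH (31.5 to 32.5) and 29.4% in SCG (29.0 to 29.8), against 26.5% in TWH (26.0 to 26.9) and 26.8% in TCG (26.4 to 27.3). The annotated form thus held a smaller part of the family in both L6 libraries, beyond counting error. By position, and with overlapping sequences of identical values counted once (14 sequences), the 5′ arm held 67.8% of the miR5048 reads in SWH (67.3 to 68.3), 70.3% in SCG (69.9 to 70.7), 73.3% in TWH (72.9 to 73.8) and 73.0% in TCG (72.5 to 73.5). Counting all 19 sequences, which enters shared reads such as those of tae-MIR5048-p5_1 and _2 once for each name, the shares were 51.4%, 54.3%, 58.0% and 57.5% in the same order. Under either counting the share was lower in miR5048 than in miR1432 in all 4 libraries.

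**Figure D4:**
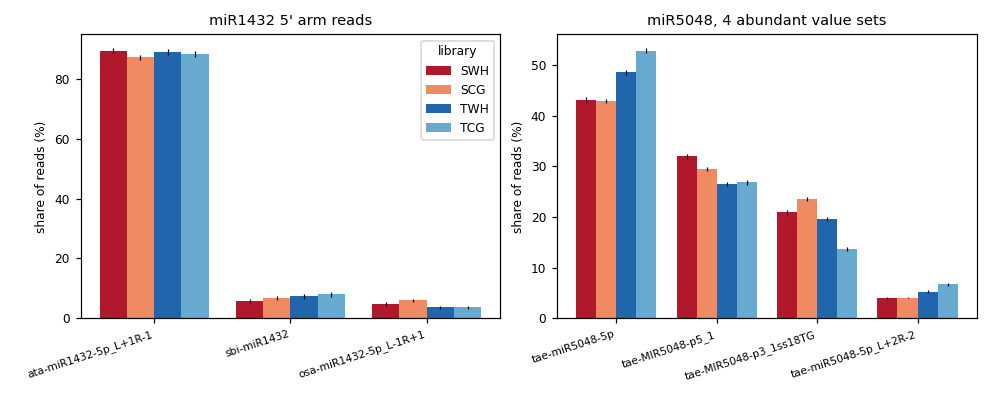
Share of reads (%) taken by each miR1432 form of the 5′ arm (left) and by each of the 4 abundant miR5048 value sets (right), 1 bar per library with exact binomial 95% intervals. The tae-miR5048-5p bars are 43.1% and 42.9% in SWH and SCG, against 48.6% and 52.8% in TWH and TCG.

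A less abundant 3′ arm sequence with the TAGACCT seed, tae-MIR5048-p5_2ss18AT19GT, had the largest fold changes between the genotypes among the members detected in all libraries. It had 93.5 normalised counts in SWH, 101 in SCG, 42.6 in TWH and 22.8 in TCG, from 78, 121, 45 and 22 reads. Both L6 libraries lay above both DBA Aurora libraries. It rose 4.42-fold in SCG relative to TCG (log2 2.15, 1.48 to 2.87, Fisher's exact p = 3.31e-12) and 2.20-fold in SWH relative to TWH (log2 1.13, 0.59 to 1.70, Fisher's exact p = 1.46e-05). With edgeR's exact test the adjusted p was 0.00309 in SCG vs TCG and 0.236 in SWH vs TWH. This sequence did not occur exactly in its own deposited precursor on 1B, so its locus is uncertain. tae-MIR5048-p5_1 had 130 times its reads in SWH (104 to 165) and 123 in SCG (103 to 148), against 224 in TWH (167 to 307) and 404 in TCG (267 to 645).

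tae-MIR5048-p5_2ss18AT19GA_1 and _2, which carry A18T and G19A, had 10.8 normalised counts in SWH and 13.3 in SCG, and were listed at 0 in TWH and TCG. Against 5 reads in the library at 0, they were at least 2.57-fold higher in SCG than in TCG (Fisher's exact p = 2.54e-04) and at least 2.28-fold higher in SWH than in TWH (Fisher's exact p = 4.57e-04). They rest on 9 reads in SWH and 16 in SCG and also did not occur exactly in their deposited precursors.

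The other members that passed the fold criterion had low counts. tae-MIR5048-p3_1, _2 and _3 had 13.2 normalised counts in SWH, 29.1 in SCG, 26.5 in TWH and 32.1 in TCG. SWH was the low library, at a log2 of -1.14 against SCG (-2.27 to -0.13, Fisher's exact p = 0.0210) and -1.01 against TWH (-2.16 to 0.04, Fisher's exact p = 0.0386). tae-MIR5048-p5_2ss3TA18TG had 15.6 in SWH, 9.99 in SCG, 18.9 in TWH and 6.21 in TCG, and rose in TWH relative to TCG (log2 1.61, 0.24 to 3.21, Fisher's exact p = 0.0147). tae-MIR5048-p3_1ss15TG_1 and _2 had 7.19 in SWH, 5.83 in SCG and 4.73 in TWH and were listed at 0 in TCG. tae-miR5048-5p_1ss1TA had 4.16 in SCG and 5.68 in TWH and was listed at 0 in SWH and TCG. These last 2 value sets rest on 5 to 7 reads, at the recording minimum. The remaining 2 value sets, tae-MIR5048-p3_1ss18AT and tae-MIR5048-p3_1ss9GT, lay between 18.3 and 30.3 normalised counts in all libraries and passed the tests in no comparison. tae-MIR5048-p3_1ss18AT, which also begins at base 313 of the 3′ arm, gave a log2 of -0.25 (-1.18 to 0.69) in SCG vs TCG and -0.34 (-1.22 to 0.51) in SWH vs TWH, so no direction could be told for it at this depth.

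Counted as DEMs (p under 0.05 in the chi-squared and Fisher's exact tests and a |log2 fold change| above 1, or a 0 in 1 library), 2 of the 23 members were called in TWH vs TCG, where 20.6% of all sequences were called, and both were up-regulated, as were 10.1% of all sequences. In SWH vs SCG 3 members were called (18.1% of all sequences), which were the down-regulated tae-MIR5048-p3 sequences of 1 value set, where 11.1% of all sequences were down-regulated. In SCG vs TCG 6 were called (29.2% of all sequences) and all were up-regulated (13.8% of all sequences). In SWH vs TWH 7 were called (28% of all sequences), of which 3 were up-regulated (11.3%) and 4 down-regulated (16.7%). The members' shares, 8.70%, 13.0%, 26.1% and 30.4%, were below or close to those of all sequences. All of these DEMs were miR5048 sequences, and no miR1432 sequence passed the fold criterion in any of the 4 comparisons. After Benjamini-Hochberg adjustment of both p-values over the 2111 sequences, 0 members were called in TWH vs TCG (11.7% of all sequences) and 0 in SWH vs SCG (6.02%), while 4 were called in SCG vs TCG (23.3%) and 3 in SWH vs TWH (22.9%). These were tae-MIR5048-p5_2ss18AT19GT and tae-MIR5048-p5_2ss18AT19GA_1 and _2, and in SCG vs TCG also tae-MIR5048-p3_1ss18TG. At p under 0.01 without adjustment, 0 were called in TWH vs TCG (11.7% of all sequences), 0 in SWH vs SCG (8.95%), 4 in SCG vs TCG (18.6%) and 3 in SWH vs TWH (16%). edgeR's exact test at an unadjusted p under 0.05, with the fold criterion, called 2 members in TWH vs TCG (16.5% of all sequences), 0 in SWH vs SCG (15.7%), 6 in SCG vs TCG (24.5%) and 3 in SWH vs TWH (18.4%). With its adjusted p, 0 were called in TWH vs TCG (1.23%), 0 in SWH vs SCG (0.521%), 3 in SCG vs TCG (11%) and 0 in SWH vs TWH (4.45%).

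Without the fold criterion, 9 of 23 members passed both tests in TWH vs TCG, 4 higher and 5 lower, where 32.1% of all sequences passed. In SWH vs SCG 9 passed, 1 higher and 8 with lower counts, with tae-MIR5048-p5_1 and _2 among the 8, where 27.1% of all sequences passed. In SCG vs TCG 14 passed, 9 higher and 5 lower (42.1% of all sequences), and in SWH vs TWH 14 passed, 8 higher and 6 lower (40.4%). Of all 2111 sequences, 314 were higher and 364 lower in TWH vs TCG, and 242 higher and 331 lower in SWH vs SCG. In SCG vs TCG 402 were higher and 486 lower, and in SWH vs TWH 368 and 484. Counted by value set, 9, 6, 11 and 10 of the 16 passed in the same order. The share over all value sets is not given, so these counts cannot be set against the shares of all sequences. Both tests also pass more easily for abundant sequences. With 1 sequence per value set, the median log2 fold change over the 16 value sets (pseudocount 1) was -0.01 in TWH vs TCG, -0.11 in SWH vs SCG, 0.22 in SCG vs TCG and -0.04 in SWH vs TWH, against 0, -0.03, 0 and -0.02 over all sequences. TWH vs TCG and SCG vs TCG share the TCG library, as SWH vs SCG and SWH vs TWH share SWH, so these comparisons are not independent.

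The summed normalised count of miR1432 was 5702 in SWH, 5014 in SCG, 4587 in TWH and 6045 in TCG. It was lower in TWH than in TCG (log2 -0.40, -0.45 to -0.34) and higher in SWH than in SCG (log2 0.19, 0.13 to 0.24), following its most abundant sequence. For miR5048 the sums were 38296 in SWH, 42300 in SCG, 36173 in TWH and 34471 in TCG. The log2 fold change was 0.07 (0.05 to 0.09) in TWH vs TCG and -0.14 (-0.16 to -0.12) in SWH vs SCG between the parent treatments. Between the genotypes it was 0.30 (0.28 to 0.32) in SCG vs TCG, where miR1432 gave -0.27 (-0.32 to -0.22), and 0.08 (0.06 to 0.10) in SWH vs TWH, where miR1432 gave 0.31 (0.26 to 0.37). Both families thus differed in opposite directions between the WH and CG libraries of the 2 genotypes, and the directions of the 2 families were opposite to each other. The genotypes differed in the same direction for both families in SWH vs TWH and in opposite directions in SCG vs TCG. With the annotated mature names alone, the miR5048 values turned to -0.08 in TWH vs TCG, -0.05 in SCG vs TCG and -0.11 in SWH vs TWH. Without tae-miR5048-5p they were 0.19, 0.57 and 0.23 in the same order, and for miR1432 that in SWH vs SCG turned to -0.05 without ata-miR1432-5p_L+1R-1.

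An effect common to both genotypes or to both parent treatments was tested by fitting the rounded reads of the 4 libraries jointly with edgeR (quasi-likelihood test, 1 residual degree of freedom). That degree of freedom holds the difference in parent effect between the genotypes, not a spread between replicates. Of the 23 members, 18 passed the filter on low counts (a mean normalised count of 10). No member was called for the parent treatment (0% of the 1258 sequences were called) or for the genotype (0.0795% of the 1258). At an unadjusted p under 0.05 there were 0 members for the parent treatment (1.59% of the 1258 sequences) and 4 for the genotype (13.8%). DESeq2 and limma also called 0 members for both effects, where they called 0% of the 1258 for the parent treatment and 2.78% (DESeq2) and 0.874% (limma) for the genotype. For the genotype, DESeq2 gave no adjusted p for the tae-MIR5048-p3, tae-MIR5048-p3_1ss18AT, tae-MIR5048-p3_1ss9GT and tae-MIR5048-p5_2ss3TA18TG members, so these could not be called. Without the filter on low counts edgeR called 2 of the 23 members for the genotype, tae-MIR5048-p5_2ss18AT19GT and tae-MIR5048-p3_1ss18TG, where 138 of the 2111 sequences (6.54%) were called, and 0 for the parent treatment (0.142% of all sequences). With the filter, the 4 for the genotype were tae-MIR5048-p5_2ss18AT19GT (L6 over DBA Aurora log2 1.61, edgeR adjusted p = 0.218), tae-MIR5048-p5_1 and _2 (log2 0.40, edgeR adjusted p = 0.314) and osa-miR1432-5p_L-1R+1 (log2 0.59, edgeR adjusted p = 0.350). For the parent treatment, tae-MIR5048-p5_2ss3TA18TG came nearest to the threshold (WH over CG log2 1.14, edgeR adjusted p = 0.997).

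The sequences of other families with the most similar profile were sought among the 313 non-members whose normalised counts averaged 100 or more, by the root mean square difference of centred log2 profiles over the 4 libraries. For ata-miR1432-5p_L+1R-1 these were ata-miR9863a-3p_L+3_1ss12TC (0.05), ptc-miR6478_R-2_1ss6CT (0.06) and ata-miR172c-3p (0.07). For tae-MIR5048-p3_1ss18TG they were bdi-miR5064_L-2R+2 (0.05), bdi-MIR169c-p5_1ss16GC (0.10) and tae-miR9778_R-1 (0.12), and bdi-miR5064_L-2R+2 had 933 normalised counts in SWH, 1173 in SCG, 861 in TWH and 601 in TCG. For tae-miR5048-5p, whose level hardly varied, they were tae-MIR1136-p3_1ss13AG, tae-MIR397-p5 and tae-miR1122b-3p_1ss11GT, each at 0.02. With 4 libraries such likeness is a description only. No non-member shared a run of 16 or of 12 bases with a member.

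Of other families described in cereals, miR444, miR528, miR2118 (also known from eudicots), miR5062, miR5200 and miR9863 together had 55 sequences, and no sequence of miR1318 was listed. Sequences past both tests are counted here against the shares of all sequences given above. In TWH vs TCG 13 of the 55 were higher and 11 lower by both tests (314 and 364 of all 2111 sequences). In SWH vs SCG 20 were higher and 10 lower (242 and 331 of all sequences). In SCG vs TCG 14 were higher and 18 lower (402 and 486 of all sequences), and in SWH vs TWH 17 were higher and 11 lower (368 and 484). Their DEMs numbered 5 (9.09% of the 55), 11 (20%), 12 (21.8%) and 10 (18.2%) in the same order, against 20.6%, 18.1%, 29.2% and 28% of all sequences, with both directions in each comparison.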

How the data were processed

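Small RNAs of 18 to 25 nt from 4 pooled libraries had been matched by the authors (ACGT101-miR program) with miRBase release 22.1 and the durum genome Svevo.v1. The authors deposited an estimated count of reads and a normalised signal (the normalised count) per library for each miRNA entry. The deposited signal equals the estimated count times 1 factor per library. Duplicate entries were merged into 2111 different sequences. In each pair of libraries, every sequence was set against all others by their normalised counts, using chi-squared 2 × 2 and Fisher's exact tests, the exact one two-sided (scipy), and effects over the 4 libraries with edgeR 4.0.16 on rounded read numbers (TMM factors, Benjamini-Hochberg adjustment), with DESeq2 1.42.0 and limma 3.58.1 as alternatives. Reads were simulated without the recording minimum and with counting error as the only spread between libraries. On these, the pair tests found 99 to 100 of every 100 sequences altered by a log2 of 1.5. They called 41 to 53 of 1911 unchanged ones, a rate that leaves out any other spread between libraries. On reads simulated with such a spread, edgeR recovered 94 of 100 changed by a log2 of 2 for the parent treatment and 100 of 100 for the genotype. In both simulations only the more abundant sequences were altered. The recovery therefore does not cover members with low counts, or changes smaller than those simulated.

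Intervals are 95% intervals, exact except for a difference of fold changes (normal approximation). They cover counting error only, which reads without molecular identifiers can understate. Sequences that reached a normalised count of 100 in 1 library, or were called in 1 comparison, are given with every library's value. Members, lists and rules were chosen with earlier results of these data known. The alternatives covered thresholds, units, scaling, filters and tools.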

Additional observations from a re-analysis of the deposited data

Results flagged for a closer look

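2 members passed both tests in opposite directions in the WH against CG comparison of the 2 genotypes. For ata-miR1432-5p_L+1R-1 the log2 fold change was 0.24 in SWH vs SCG and -0.41 in TWH vs TCG, and the L6 value minus the DBA Aurora value was 0.65 (95% interval for counting error 0.56 to 0.73). For tae-MIR5048-p3_1ss18TG it was -0.31 in SWH vs SCG and 0.60 in TWH vs TCG, a difference of -0.91 (-0.98 to -0.84). These differences were set against counting error alone. With 1 library per seed group the difference was not tested against a spread between seedling pools, and a property of 1 library cannot be told apart from one of its seed group.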

How the results depend on the processing

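No paired analysis was possible because each seed group has 1 library and no replicate numbers, and for the same reason no replicate could be left out. The number of members called among the 23 depended on the threshold. At p under 0.01 and with Benjamini-Hochberg adjusted p-values alike, 0 were called in TWH vs TCG, 0 in SWH vs SCG and 3 in SWH vs TWH, and without the fold criterion 9 in TWH vs TCG, 9 in SWH vs SCG, and 14 each in SCG vs TCG and in SWH vs TWH. With miRNA names as units 4 were called in TWH vs TCG, and with a count of at least 10 in 1 library 1 was. Counting groups of identical overlapping sequences once, or 1 sequence per base name (chosen after seeing the data), gave 1 in SWH vs SCG and 4 in SWH vs TWH, since fewer sequences were then counted. The share of the whole table called under these other units and this count filter is not given. These counts therefore cannot be set against the shares of all sequences above. edgeR's exact test with a common dispersion, at an unadjusted p under 0.05 and with the fold criterion, gave 0 in SWH vs SCG (15.7% of all sequences) and 3 in SWH vs TWH (18.4%). With its adjusted p-values, members were called only in SCG vs TCG (3 of 23, where 11% of all sequences were called). The 47 finite fold changes of named members include some that had not passed both tests. Of those that had, 25 kept their sign but no longer passed at the unadjusted p of edgeR's exact test. The sign of 3 of the 47 turned. Among the 47, this p was under 0.05 only for tae-MIR5048-p5_2ss3TA18TG in TWH vs TCG, tae-MIR5048-p3_1ss18TG in SCG vs TCG, and tae-MIR5048-p5_2ss18AT19GT in SCG vs TCG and SWH vs TWH.

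For the summed miR1432 count, leaving out the most abundant sequence gave a log2 fold change of -0.34 in TWH vs TCG, -0.0462 in SWH vs SCG (the opposite sign), -0.16 in SCG vs TCG and 0.13 in SWH vs TWH. TMM factors gave -0.33 for miR1432 in TWH vs TCG. For the miR5048 sum, TMM factors gave 0.14 in TWH vs TCG, -0.12 in SWH vs SCG and 0.34 in SCG vs TCG. Counting every different sequence gave -0.12 in SWH vs SCG, 0.32 in SCG vs TCG and 0.14 in SWH vs TWH. Without tae-miR5048-5p the miR5048 sum gave 0.19 in TWH vs TCG, 0.57 in SCG vs TCG and 0.23 in SWH vs TWH. With mature names only its sign was the opposite one, at -0.0762 in TWH vs TCG, -0.0468 in SCG vs TCG and -0.11 in SWH vs TWH, since this leaves out every name with MIR in capitals, which includes all 3′ arm members and tae-MIR5048-p3_1ss18TG. TMM factors and edgeR's exact test also turned the sign of tae-miR5048-5p in TWH vs TCG (0.0166) and in SCG vs TCG (0.0415), and of ata-miR1432-3p_L-1R+1 in SWH vs SCG (0.0111).

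Without the filter on low counts, edgeR called 2 of the 23 members for the genotype (6.54% of the 2111 sequences), tae-MIR5048-p5_2ss18AT19GT (log2 1.63, adjusted p = 0.000514) and tae-MIR5048-p3_1ss18TG (log2 0.65, adjusted p = 0.00148), and the cause was not tested. The 5′ arm share of miR5048 was 100% in every library with mature names only, which hold no 3′ arm sequence, and with the arm taken from the name it was 78.9% in SWH, 76.3% in SCG, 80.0% in TWH and 86.0% in TCG. Counting all 19 sequences (chosen after seeing the data) gave 51.4%, 54.3%, 58.0% and 57.5% in SWH, SCG, TWH and TCG. Values at 5 to 7 reads lie at the recording minimum, where a fold change is a lower bound or is not given.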
